A study of Ascaris suum with 12 samples.

Results

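Heat shock proteins and chaperonins are the folding machinery of the cell, and their genes were followed here along both germlines of Ascaris suum, the large roundworm of the pig intestine. A gene was a member when the annotation of any of its transcripts contained "heat shock", "t-complex protein", "dnaj" or "chaperonin". That gave 98 genes with 312 matching transcripts, out of 18025 genes and 61820 transcripts. By name, 37 were DnaJ (HSP40) genes, 20 small heat shock proteins and 14 genes for subunits of the cytosolic chaperonin CCT. A further 8 were HSP70, 6 HSP60 or HSP10, 4 HSP90 and 2 HSP110 genes. The other 7 were heat shock factor 1 and the gene of its binding protein, 4 cochaperone or unspecified genes and 1 t-complex protein 11 gene, which is no chaperonin subunit.

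HSP70 and HSP90 bind unfolded or partly folded client proteins in cycles driven by ATP, and DnaJ proteins deliver clients to HSP70 and start its ATP hydrolysis. The chaperonins are closed barrels. CCT folds actin and tubulin in the cytosol, and HSP60 with its lid HSP10 works in the mitochondrial matrix. Small heat shock proteins hold unfolded proteins without ATP, and heat shock factor 1 switches on many of these genes under stress.

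The worms were adults of a North American wild-type strain, collected from pig intestines and dissected without treatment. The 5 male regions were the mitotic region, spermatogenesis, the post-meiotic region, the seminal vesicle and spermatids. The 5 female regions were the mitotic region, early and late pachytene, then diplotene and the oocyte. Each region was 1 library of ribosome-depleted total RNA, and the labels do not say whether worms were pooled. Values are RPKM, read counts scaled to the length of the transcript and the depth of the library. Below, the values of a sex follow that germline order.

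With 1 library per region there is no replicate check and no p-value. A member was called higher or lower between 2 regions when RPKM + 1 differed by 4-fold and the higher of the 2 values was at least 10 RPKM. In a dissected tissue, fewer cells of a type and less RNA per cell cannot be told apart. In the label check, the 20 major sperm protein genes had medians of 18.3, 61.2, 11.25, 0.3 and 2.2 RPKM along the male germline. Their medians in the 5 female regions were 0.35 to 1.3, so by median this marker did not set the seminal vesicle apart from them. By sum the seminal vesicle was at 509.5 RPKM, against 81.9 to 150.5 in the female regions. The 19 chondroitin proteoglycan genes of the eggshell had medians of 362.8 to 444 in the first 3 female regions, against 2.2 to 12.5 in the male regions. The seminal vesicle library listed 28.2% of all genes at 0, against 11.9% to 21.4% in the other 9. Rescaling by median ratios over the 4507 genes at 1 RPKM or more everywhere gave log2 library factors between -1.32 for spermatogenesis and 1.05 in the mitotic region of the female. Counts of calls are therefore given on both scales.

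**Figure D1:**
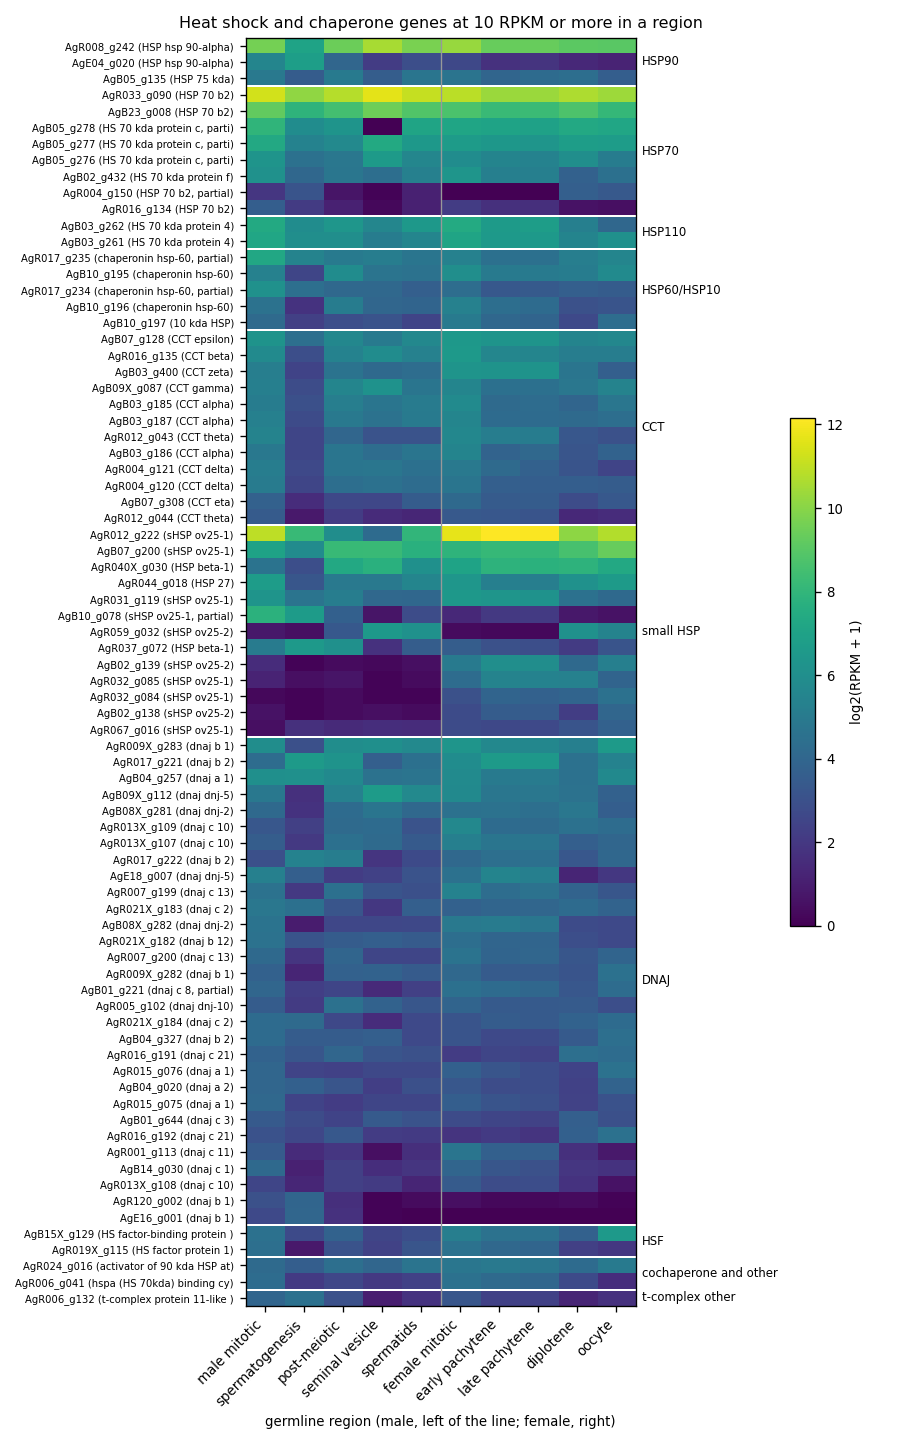
Level of the 78 members that reached 10 RPKM in some region, as log2(RPKM + 1), by region (columns, male to the left of the line) and class (rows, highest mean first within a class). Most rows are filled in all columns, AgR033_g090 and AgR012_g222 are the brightest, and the 4 small heat shock genes AgB02_g138, AgB02_g139, AgR032_g084 and AgR032_g085 are dark in all male columns.

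Members were broadly present. At least 1 RPKM was reached in all 10 regions by 64 of 98 members (65.3%), against 4507 of all 18025 genes, and 78 of 98 reached 10 RPKM somewhere, against 49.7% of all genes. Only the 3 members AgR047_g039, AgR004_g220 and AgR031_g047 stayed under 1 RPKM everywhere. Among the 64, the highest value was a median of 8.84 times the lowest, against 11.8 times for all genes at 1 RPKM or more everywhere. The table flags 58 of 98 members (59.2%) as trans-spliced to the spliced leader, against 43.0% of all genes. In its column for transcripts without trans-splicing it flags 26 (26.5%), against 14.6% of all genes. Both flags are carried by 18 members (18.4%) through their transcripts, against 7.78% of all genes. Scaffolds named X hold 15 of the 98 (15.3%), against 18.2% of all genes, and 3 members (3.06%) lie in eliminated DNA, against 5.16% of all genes. Eliminated DNA is cut from the genome of somatic cells early in development and is kept in the germline. The 98 genes lie at 75 loci when neighbours of the same name within 10 kb are joined, and 26 overlap another member, so they are not all independent measurements.

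HSP90 came from a pair of genes with opposite extremes in spermatogenesis. Among the female regions both were highest in the mitotic region and lowest in the oocyte on the deposited scale. The retained gene AgR008_g242 (hsp 90-alpha, scaffold AgR008, 4319338 to 4327764, 14 exons) was at 785.6, 130.7, 685.7, 1492.3 and 844.8 RPKM along the male germline. In the female it was at 1235, 632.3, 635.3, 552.2 and 528.3 RPKM. Its lowest value of the 10 was in spermatogenesis. The eliminated gene AgE04_g020 (hsp 90-alpha, scaffold AgE04, 233782 to 255476, 14 exons) was at 45.9, 113.1, 14.9, 3.4 and 6.6 RPKM along the male germline. In the female it was at 5.2, 2.3, 2.6, 1.6 and 1.3 RPKM. Its highest value was in spermatogenesis, and its 3 highest values were the first 3 male regions. Its male mitotic value was 40.6% of that in spermatogenesis. For the 7 major sperm protein genes at 100 RPKM or more in spermatogenesis that share was a median of 43.9% (lowest 7.32%), and RNA of later cells in the mitotic sample was not tested as a source. Of the 2 levels added together, the eliminated gene made up 46.4% in spermatogenesis, against 5.52% in the male mitotic region and 0.227% to 2.13% in the other 8 regions. With its short transcript AgE04_g020_t06 (2360 nt, 209.9 RPKM in spermatogenesis) the share there was 61.6%. Such shares compare 2 genes within a library and do not depend on how libraries are scaled.

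The calls for both genes follow from these levels. AgR008_g242 was lower in spermatogenesis than in the male mitotic region (-2.58 on the log2 scale of RPKM + 1) and higher in the post-meiotic region than in spermatogenesis (2.38). Neither call was kept after rescaling, which left -0.52 and 1.28. AgE04_g020 was higher in the male than in the female mitotic region (45.9 against 5.2 RPKM, a log2 difference of 2.92) and lower in the post-meiotic region than in spermatogenesis (-2.84), and both calls were kept after rescaling. HSP 75 kDa, the mitochondrial member of the family (AgB05_g135), was at 29.4, 10.7, 30.3, 11 and 25.3 RPKM in the male regions and at 24.5, 14.7, 17.8, 19.7 and 11.5 in the female ones. Its overlapping neighbour AgB05_g134 stayed between 1.3 and 6 RPKM.

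**Figure D2:**
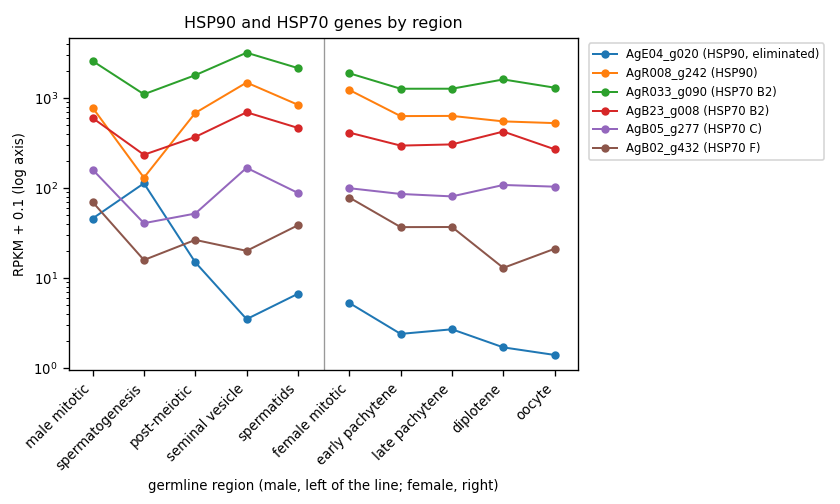
Level of 2 HSP90 and 4 HSP70 genes in each region, as RPKM + 0.1 on a log axis, with 1 point per library and the male regions left of the line. The eliminated HSP90 gene AgE04_g020 peaks at 113.1 RPKM in spermatogenesis, where AgR008_g242 is at its lowest value of 130.7.

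HSP70 held the most abundant member of the male regions. AgR033_g090 (heat shock protein 70 B2, scaffold AgR033, 1396617 to 1412919, 10 exons) was at 2592.2, 1105.9, 1802.4, 3202.5 and 2160.5 RPKM along the male germline and at 1892.2, 1273.5, 1274.3, 1615.7 and 1308.8 along the female one. Some of its transcripts are named HSP70 A, which in Caenorhabditis elegans is the constitutive cytosolic HSP70. On the deposited scale the span from its lowest to its highest value was 2.90-fold, the smallest of the 5 HSP70 genes at 1 RPKM or more in all regions. That rank was not kept after rescaling. A second gene named HSP70 B2, AgB23_g008, lies on another scaffold and was at 235 to 697.1 RPKM in the male and 270.4 to 425.7 in the female. Its level was 20.6% to 26.3% of that of AgR033_g090 in every region. Whether the 2 genes share reads was not tested.

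The other HSP70 genes were lower. HSP70 C is in Caenorhabditis elegans an HSP70 of the endoplasmic reticulum, and AgB05_g277 of that name was at 160.8, 40.7, 52.1, 168.2 and 88.4 RPKM in the male regions. In the female regions it was at 99.8, 86.1, 80.9, 108.4 and 103.8 RPKM. It overlaps AgB05_g276 (21.9 to 98 RPKM over the 10 regions) and AgB05_g278, so how reads were divided over the 3 is uncertain. The HSP70 C transcript of AgB05_g278 was at 245.6, 58.7, 77, 0 and 136.4 RPKM in the male regions and 123.1 to 160.2 in the female ones. It is listed at 0 in the seminal vesicle, where a transcript of that gene named for a proteasome subunit (AgB05_g278_t01) was at 171.9. HSP70 F, in Caenorhabditis elegans the mitochondrial HSP70 (AgB02_g432), was at 70.1, 15.8, 26.5, 20 and 38.6 RPKM in the male and 78.6, 36.8, 36.9, 12.9 and 21.1 in the female. It was called lower in spermatogenesis than in the male mitotic region at -2.08, and rescaling left -0.08.

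A pair of low HSP70 B2 genes had other patterns. AgR016_g134 was at 11.2, 3.3, 1.2, 0.2 and 1.2 RPKM in the male regions, and at 3.5, 2.2, 2.1, 0.5 and 0.4 in the female ones. The mitotic region was highest in both sexes on the deposited scale, while the rescaled maximum was in spermatogenesis. AgR004_g150 was at 2.8, 7.9, 0.6, 0.1 and 1.2 RPKM in the male. In the female it was listed at 0 in the first 3 regions and was at 11.9 in diplotene and 9.5 in the oocyte. It was called higher in diplotene than in late pachytene (3.69, and 3.83 after rescaling).

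The HSP110 genes, named heat shock 70 kDa protein 4 and nucleotide exchange factors of HSP70, lie at 1 locus. AgB03_g261 was at 144.5, 63.3, 62.9, 33.9 and 44.7 RPKM in the male regions and 137.8, 92.5, 94.2, 43.1 and 67.2 in the female ones. AgB03_g262, a 352 nt model inside it, was called lower in the oocyte than in the female mitotic region (15.6 against 169.9 RPKM, -3.36, and -1.93 with the call lost after rescaling), while AgB03_g261 was not called (67.2 against 137.8).

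All 8 CCT subunits were named among the 14 CCT genes, and with 1 gene per subunit they had the same low point in the male. CCT beta (AgR016_g135, scaffold AgR016, 2626514 to 2638321, 12 exons) was at 56.1, 6.5, 40.5, 59 and 39.5 RPKM in the male regions. In the female regions it was at 95, 46.9, 45.7, 35 and 34.8 RPKM. CCT epsilon (AgB07_g128) was at 75.6, 20.6, 48.7, 30.4 and 50.6 RPKM in the male and 87.4, 77.8, 78.5, 43.3 and 47.6 in the female. CCT gamma (AgB09X_g087) was at 37.1, 6, 45.2, 71.4 and 25.8 RPKM in the male and 44.6, 21.6, 21.5, 26.9 and 41.7 in the female. Spermatogenesis held the lowest of the 10 values for all 3.

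CCT theta and CCT zeta had their higher female values in the first 3 regions. CCT theta (AgR012_g043) was at 42.3, 4.9, 15.1, 7.7 and 7.6 RPKM in the male and 48.2, 34.9, 33.7, 9 and 7 in the female. CCT zeta (AgB03_g400) was at 35.4, 4.5, 23.6, 16.6 and 19.2 RPKM in the male and 77, 75.5, 73.9, 25.8 and 11.7 in the female. The zeta model also spans the RNA helicase cgh-1, whose own transcript AgB03_g400_t09 was at 134.2, 138.3 and 138.1 RPKM in the first 3 female regions, so its female values may hold cgh-1 reads, which was not tested. CCT alpha (AgB03_g185) ran from 6.9 to 36 RPKM in the male and 14.6 to 54.8 in the female. CCT delta (AgR004_g121) ran from 5.5 to 34.9 in the male and 4.6 to 29 in the female, with its low point in the oocyte. CCT eta (AgB07_g308) was the lowest subunit in the male mitotic region, at 12.6 RPKM, and fell within 1.9 to 16.8 over the 10 regions. The other 6 CCT genes lie next to a subunit gene of the same name. AgB03_g186 and AgB03_g187 (alpha) and AgR004_g120 (delta) had 4.8 to 5.8 RPKM in spermatogenesis, against 28.1 to 38.4 in the male mitotic region, and AgR012_g044, AgR012_g045 (theta) and AgR004_g119 (delta) reached at most 10.3.

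Of the 14 CCT genes, 12 had a lower value in spermatogenesis than in every other region. Against the male mitotic region 11 of 14 were called lower in spermatogenesis and 0 higher, where 11% of all genes were called lower. In the post-meiotic region 7 of 14 were called higher than in spermatogenesis and 0 lower, where 6.2% of all genes were called higher. The median log2 difference of the 13 CCT genes with a mean of 1 RPKM or more was -2.47 in the first of these steps, against -0.84 over all 12461 genes with such a mean. It was 2.03 in the second. Both sets of calls depended on the scale, as 0 of 14 CCT genes were called in either step after rescaling, when 3 of the 12 CCT genes that reached 10 RPKM had their lowest value in spermatogenesis. On the deposited scale 11 of those 12 did, against 33.9% of all genes that reached 10 RPKM. Across the 10 regions the 8 subunits had a median pairwise Pearson r of 0.70 on the log2 scale (28 pairs, 0.22 to 0.92), against 0.20 over all gene pairs. After rescaling it was 0.19, against 0.016. These r values describe 10 libraries whose scale all genes share.

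**Figure D3:**
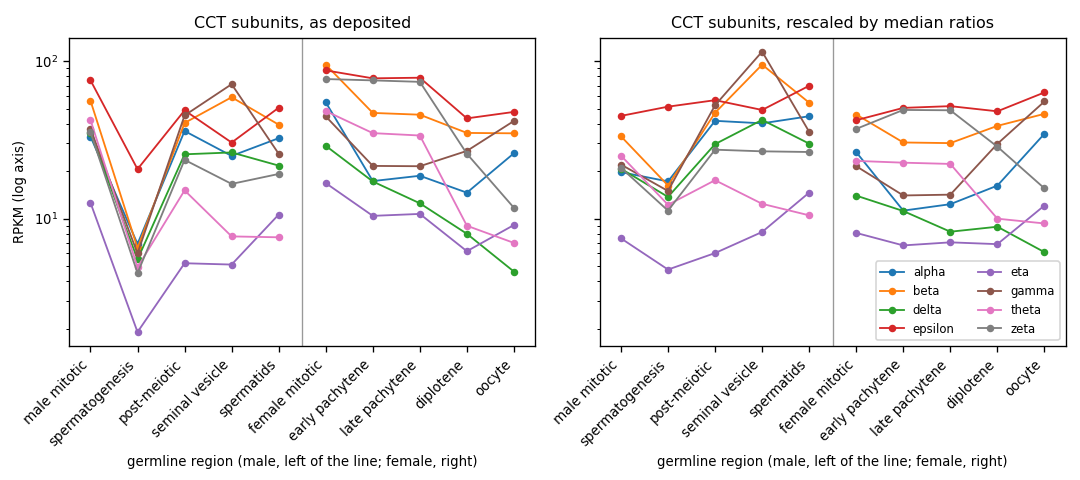
Level of 1 gene for each of the 8 CCT subunits by region, in RPKM on a log axis, as deposited (left) and after rescaling by median ratios (right), with the male regions left of the line. All 8 lines dip at spermatogenesis on the deposited scale, CCT beta to 6.5 RPKM. After rescaling the median over the 14 CCT genes is 20.2, 12.2 and 28.5 RPKM in the first 3 male regions, a smaller dip.

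HSP60 genes lie at separate loci. AgB10_g195 (12 exons) was at 39.4, 4.9, 58.7, 24.9 and 22.9 RPKM in the male and 62.6, 30.8, 30.2, 33.7 and 55.2 in the female. It was called higher in the post-meiotic region than in spermatogenesis at 3.34, and at 2.39 after rescaling. AgB10_g196, a short model inside it on the other strand, was called too, at 3.32. The HSP10 gene AgB10_g197 overlaps the end of AgB10_g195 and was at 17.6, 4, 6.6, 7.5 and 4.7 RPKM in the male and 30.3, 15.7, 14.3, 5.5 and 19.3 in the female. The second locus was highest in the male mitotic region on the deposited scale, and in spermatogenesis after rescaling. AgR017_g235 was at 155.5, 42.5, 31, 35 and 25.1 RPKM in the male and 39.3, 21.1, 21.6, 35.2 and 44.7 in the female. It was called lower in spermatids than in the male mitotic region (-2.58), as was AgR017_g234, which overlaps it on the other strand, and rescaling ended both calls. Its difference between the male and the female mitotic region, 1.96, missed the call, and rescaling took it to 2.23. AgB06_g181 stayed at 3.1 RPKM or below.

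The small heat shock proteins included genes high in 1 sex, genes high late in both and genes near 0. Of the 20 genes, 13 reached 10 RPKM. The most abundant was AgR012_g222 (OV25-1, named for a protein of the nematode Onchocerca volvulus; scaffold AgR012, 3962275 to 3965861, 3 exons). It was at 1950.8, 287.9, 61.8, 18.2 and 258.6 RPKM along the male germline and at 3324.1, 4550.8, 4261.7, 1081.4 and 1751 along the female one. In early pachytene it stood 250 times above its value in the seminal vesicle, and all 5 female values were above every male value but that of the mitotic region. It was called lower in spermatogenesis than in the male mitotic region (-2.76), lower in the post-meiotic region than in spermatogenesis (-2.20) and higher in spermatids than in the post-meiotic region (2.05). Rescaling kept the last 2 calls.

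Another 4 genes, in 2 neighbouring pairs, had every female value at least 2-fold above every male value on RPKM + 1. AgB02_g139 (OV25-2, scaffold AgB02, 2494172 to 2495505, 2 exons) was at 1.9, 0.1, 0.3, 0.2 and 0.4 RPKM in the male and 31.7, 63.7, 60.2, 16.9 and 36.7 in the female. AgB02_g138, which ends 187 bp before it, was at 0.1 to 0.5 RPKM in the male and 3.6 to 15 in the female. AgR032_g085 (OV25-1, scaffold AgR032, 1403054 to 1404413, 1 exon) was at 1.3, 0.4, 0.6, 0.1 and 0.3 RPKM in the male and 18.5, 41.8, 40.9, 39.6 and 14 in the female. AgR032_g084, 84 bp before it, was at 0.1 to 0.3 RPKM in the male and 7.2 to 21.9 in the female. The AgB02 models are listed on opposite strands with 2 exons each, and the AgR032 models have 1 exon each and no strand. Whether the members of a pair are separate genes was not tested.

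Other small heat shock genes had higher male values. AgB10_g078 (OV25-1, scaffold AgB10, 1224017 to 1228692, 4 exons) was at 226.7, 100.1, 12.4, 0.6 and 6.2 RPKM along the male germline and at 1.6, 3, 3.2, 0.7 and 0.5 along the female one. Its male mitotic value stood 6.45 above the female one on the log2 scale, the largest difference among members in that comparison. It was lower in the post-meiotic region than in spermatogenesis (-2.92) and lower in spermatids than in the male mitotic region (-4.98), on both scales. Its rescaled maximum was in spermatogenesis. AgR037_g072 (HSP beta-1, 9952 nt) was at 32.8, 89.8, 68.1, 2.3 and 11 RPKM in the male and 10.9, 7.2, 6.5, 3.3 and 8 in the female. Its other transcript, named major egg antigen (AgR037_g072_t03), had a post-meiotic value of 21.9 RPKM, against 3.8 in spermatogenesis, so the 2 named models of the gene did not follow each other.

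AgR059_g032 (OV25-2, scaffold AgR059, 578918 to 586467, 4 exons) was high at the end of both germlines. It was at 0.7, 0.4, 9.1, 95.2 and 70.6 RPKM in the male and 0.3, 0.2, 0.2, 69.7 and 41.9 in the female. It was called higher in diplotene than in late pachytene (5.88), in the oocyte than in the female mitotic region (5.04) and in spermatids than in the male mitotic region (5.40), and rescaling kept all 3. Its post-meiotic value was 9.56% of its seminal vesicle value. Of the 354 genes at 100 RPKM or more in the seminal vesicle, 59 had such a share or less in the post-meiotic library and 0 were under 5%, so RNA common to the 2 samples was not told apart from expression there. By sum and median, muscle genes were also higher in diplotene and the oocyte than earlier in the female. The 26 genes named for myosin heavy chain, troponin, tropomyosin or paramyosin summed to 1075.2 and 1084.4 RPKM there, against 87.4 to 96 in the other 3 female regions. AgR040X_g053 (myosin heavy chain) alone was at 667.7 and 513.6 RPKM. The medians were 5.3 and 5.7 RPKM, against 0.25 to 0.35. Of the 26, 17 and 18 were at 1 RPKM or more in diplotene and the oocyte, against 10 or 11. Along the male germline they summed to 123.3, 395.8, 361.9, 89.9 and 172.9 RPKM, with 9, 9, 12, 8 and 15 of the 26 at 1 RPKM or more and a median of 1.9 RPKM in spermatids, against 0.2 to 0.45 in the other 4 male regions. At 0 in all 10 regions were AgB10_g158 (myosin heavy chain) and AgR005_g074 (troponin T). The muscle genes did not all move together. Those named for ventricular myosin heavy chain were highest in spermatogenesis, among them AgR017_g266 at 146.9 and AgR039_g062 at 128.5 RPKM. AgR048X_g057 (troponin C) was at 0 in diplotene and the oocyte. The 142 cuticle collagen genes summed to 271.6, 258.7, 1924.6, 25919.9 and 19160.3 RPKM along the male germline, highest where AgR059_g032 was highest, and to 577.2, 875.2, 710.1, 497.6 and 544.3 along the female one. Their median was 0.3 RPKM or less in every region. The part of muscle RNA in the late female values of AgR059_g032, of AgR004_g150 and of the other members higher there was not tested, nor was that of cuticle collagen-expressing cells in the seminal vesicle and spermatids.

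The remaining small heat shock genes were expressed in both sexes or low. AgB07_g200 was at 128.5, 56.6, 291.7, 302.7 and 212.3 RPKM in the male and at 239.9, 278.2, 275.5, 391.4 and 644.8 in the female, highest in the oocyte. AgR040X_g030 (HSP beta-1) was at 23.6, 6.5, 162, 211.7 and 67 RPKM in the male and 129.3, 228.6, 217, 229.7 and 161.1 in the female. It was called higher in the post-meiotic region than in spermatogenesis at 4.44, and at 3.46 after rescaling. AgR044_g018 (HSP 27) was at 8.4 RPKM in spermatogenesis, against 103.2 in the male mitotic region. AgR031_g119 was called lower at the end of both series, at 15.4 RPKM in spermatids, against 76.5 in the male mitotic region, and at 16.7 in the oocyte, against 87.8 in the female mitotic region. Rescaling ended both calls, leaving -1.06 and -0.90. AgR067_g016 was at 0.4 to 2.2 RPKM in the male and 5.3 to 12.7 in the female, so its gap was -0.98 on the log2 scale of RPKM + 1 (male over female), just short of 2-fold. Hsp-12.2 (AgR001_g354) stayed just under the limit, with 9.7 RPKM in spermatids, 8.4 in diplotene and 7.3 in the oocyte, against 0 to 1.8 in the other 7 regions. The other 6, AgB03_g030, AgR004_g220, AgR005_g142, AgR047_g037, AgR047_g038 and AgR047_g039, reached at most 4.9 RPKM.

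**Figure D4:**
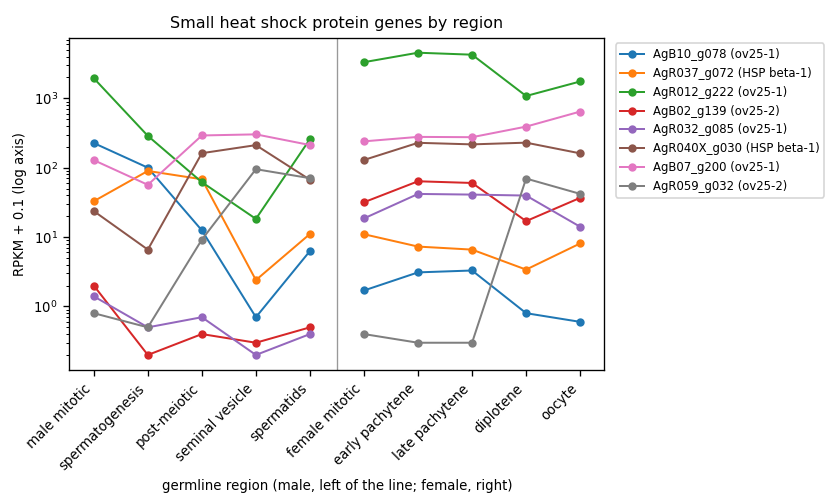
Level of 8 small heat shock protein genes in each region, as RPKM + 0.1 on a log axis, with the male regions left of the line. AgB10_g078 falls along the male germline from 226.7 RPKM to 0.6 in the seminal vesicle and is at 6.2 in spermatids. AgR059_g032 climbs late in both sexes, and AgB02_g139 and AgR032_g085 stay at 1.9 RPKM or less in the male.

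DnaJ genes were mostly moderate in level, and 30 of 37 reached 10 RPKM. The highest oocyte value was that of AgR009X_g283 (subfamily B member 1, a cytosolic partner of HSP70), at 60.8, 6.7, 60.8, 64.3 and 52.3 RPKM in the male and 80.6, 50.6, 48.5, 37.3 and 97.7 in the female. It was called lower in spermatogenesis than in the male mitotic region, a call that rescaling ended (-1.07), and higher in the post-meiotic region than in spermatogenesis at 3.00 (2.01 after rescaling). AgR009X_g282, a 1-exon model of 7610 nt on the other strand, spans AgR009X_g283 and was at 19.9% to 23.0% of that gene's level. Whether both models share reads was not tested. AgR017_g221 (subfamily B member 2) went the other way from AgR009X_g283. It was at 18.7, 96.3, 75.1, 11.8 and 21.7 RPKM in the male and 59.9, 97.6, 89.1, 21.9 and 40.7 in the female, so its highest values were in spermatogenesis and pachytene. AgR017_g222, the next gene and of the same name, was at 6.7, 40.9, 34.2, 2.7 and 5.7 RPKM in the male and 16.2, 20.9, 21.2, 9 and 15.7 in the female. These were the 2 members called higher in spermatogenesis than in the male mitotic region, at 2.30 and 2.44, and rescaling raised them to 4.32 and 4.37. AgB04_g257 (subfamily A member 1) was at 66, 67.4, 53.7, 23.1 and 24.3 RPKM in the male and 56, 30.7, 32.1, 22 and 52.6 in the female. These values are those of a 4-exon transcript. The transcripts AgB04_g257_t01, AgB04_g257_t02 and AgB04_g257_t04 were at 16.1, 20.3 and 16.8 RPKM in spermatogenesis, against 31.9, 38.1 and 33.8 in the male mitotic region.

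Some DnaJ genes had nearly all of their signal in the male. AgE16_g001 (subfamily B member 1, eliminated, scaffold AgE16, 1996 to 10449, 4 exons) was at 5.4, 15, 2.3, 0.1 and 0 RPKM in the male and was listed at 0 in all 5 female regions. AgR120_g002, of the same name on a retained scaffold, was at 7.1, 14.7, 2.1, 0.1 and 0.3 RPKM in the male and 0.1 to 0.4 in the female. Both were called lower in the post-meiotic region than in spermatogenesis (-2.28 and -2.34), and rescaling kept both. The third eliminated member, AgE18_g007 (dnj-5), was not confined to the male, at 38.1, 11.6, 3.5, 4.1 and 7.7 RPKM in the male and 22.4, 43.9, 37.2, 1.4 and 2.9 in the female. It was called lower in diplotene than in late pachytene at -3.99, and at -3.32 after rescaling. The retained dnj-5 gene, AgB09X_g112, was at 28.2, 2.2, 39.4, 101.5 and 51.7 RPKM in the male and 52.9, 26, 27.2, 22.6 and 12.8 in the female.

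Other DnaJ members moved late in the female. Subfamily C member 21, a factor of large ribosomal subunit assembly in other eukaryotes, was higher in the oocyte than in the female mitotic region for both of its genes. AgR016_g192 was at 22.1 against 2.5 RPKM (2.72) and AgR016_g191 at 18.5 against 3.5 (2.12). Subfamily C member 11, a mitochondrial protein (AgR001_g113), was lower there, at 0.8 against 25.5 RPKM (-3.88). So were AgR013X_g108 (subfamily C member 10, an enzyme of the endoplasmic reticulum), AgR007_g199 (subfamily C member 13, an endosomal protein), AgB14_g030 (subfamily C member 1), AgB08X_g282 (dnj-2) and AgE18_g007, with 0.5 to 8.4 RPKM in the oocyte, against 10.3 to 41.1 in the female mitotic region. After rescaling AgR001_g113 alone of these was still called. Of the 5 transcripts of AgB08X_g282, 1 is named dnj-2 and the others are named for a zinc finger protein. The zinc finger transcript AgB08X_g282_t04 was at 8.6 RPKM in the oocyte, against 44 in the female mitotic region. Whether the dnj-2 transcript shares reads with the zinc finger transcripts was not tested. AgR013X_g109, of the same name as AgR013X_g108, was at 9 RPKM in the male mitotic region, against 50 in the female one. At 18.6 RPKM in the oocyte it was not called lower there. The other 13 DnaJ genes that reached 10 RPKM had maxima of 11.7 to 37.5. They include genes of the names above that were not called lower in the oocyte than in the female mitotic region. AgR013X_g107, which holds the 1-exon, 683 nt model AgR013X_g108 within it, was at 15.2 against 37.5 RPKM. AgR007_g200 was at 13.9 against 23.5, and AgB08X_g281 at 11.4 against 22.2. Also among the 13, AgR021X_g183 (subfamily C member 2, a ribosome-associated protein) was at 27.4, 21.7, 8.3, 2.9 and 12 RPKM in the male and 12.5 to 18.3 in the female. AgR015_g076 (subfamily A member 1) was at 22.7 RPKM in the oocyte, against 12.1 in the female mitotic region, and AgR005_g102 (dnj-10) at 22.5 in the post-meiotic region, against 3.3 in spermatogenesis. The 7 DnaJ genes under 10 RPKM everywhere had maxima of 2.6 to 7.6.

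Heat shock factor 1 (AgR019X_g115) was at 20.6, 0.8, 7.5, 4.3 and 8.1 RPKM in the male and 23.1, 16.4, 14.4, 4 and 2.9 in the female. Its highest value in each sex was in the mitotic region. It was called lower in spermatogenesis than in the male mitotic region at -3.58, and at -2.14 after rescaling. Heat shock factor-binding protein 1, which binds that factor (AgB15X_g129), was at 22.1, 5.6, 13.3, 4.8 and 6.4 RPKM in the male and 36, 22.7, 22.3, 12.8 and 94 in the female, highest in the oocyte. The activator of the HSP90 ATPase (AgR024_g016) spanned 2.74-fold over the 10 regions, at 11.4 to 24.3 RPKM in the male and 17.9 to 31.2 in the female. The HSP70-binding cochaperone AgR006_g041 was at 18.9, 3.2, 5.1, 3.1 and 4.1 RPKM in the male and 22.5, 17.3, 15.1, 5.6 and 2 in the female, and AgR011_g027 of the same name was at 7.3 or less. The t-complex protein 11-like gene AgR006_g132 was at 14.8, 22.1, 7.1, 1 and 2.4 RPKM in the male and 8.6, 4.1, 4.1, 1.4 and 2.3 in the female.

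Between the mitotic regions of both sexes, 2 of 98 members were called higher in the male and 4 lower, where 6.92% of all genes were called higher and 4.68% lower. The higher ones were AgB10_g078 and AgE04_g020, and the lower ones AgB02_g139, AgR032_g085, AgR040X_g030 and AgR013X_g109. After rescaling there were 4 higher and 2 lower, where 5.71% of all genes were higher and 2.43% lower. AgR032_g085 and AgR013X_g109 were then no longer called. The median difference of the 90 members with a mean of 1 RPKM or more was -0.17, against -0.10 over all such genes.

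In spermatogenesis, 2 of 98 members were called higher than in the male mitotic region and 29 lower, where 2.16% of all genes were higher and 11% lower. The 29 were 11 CCT, 9 DnaJ and 2 genes each of HSP60, HSP70 and small heat shock proteins, with 1 each of HSP90, heat shock factor and cochaperone genes. The median difference was -1.54, against -0.84 over all genes. Rescaling turned the balance to 10 higher and 2 lower, where 14.4% of all genes were higher and 0.394% lower. The 2 lower ones were AgB08X_g282 and AgR019X_g115. The dnj-2 transcript of AgB08X_g282 was at 23.5 RPKM in the male mitotic region and 0.9 in spermatogenesis. Its zinc finger transcript AgB08X_g282_t04 was at 32.8 and 1.2 RPKM, and shared reads were not tested. The other dnj-2 gene, AgB08X_g281, was at 16.7 and 2.4 RPKM and was not among the 2. The eliminated AgE04_g020 and AgE16_g001 were among the 10 higher ones.

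In the post-meiotic region, 20 members were called higher than in spermatogenesis and 5 lower, where 6.2% of all genes were higher and 8.08% lower. After rescaling there were 6 higher and 11 lower, where 3.53% of all genes were higher and 16.5% lower. The 5 lower ones, AgB10_g078, AgE04_g020, AgR120_g002, AgE16_g001 and AgR012_g222, were called on both scales. Higher on both scales were AgR040X_g030, AgB09X_g112, AgB10_g195, AgB10_g196 and AgR009X_g283.

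Few members were called between spermatids and the post-meiotic region. Higher were AgR059_g032 and AgR012_g222, and lower AgR037_g072 and AgR017_g222, 2 of 98 each way, where 1.67% of all genes were higher and 4.64% lower. After rescaling there were 3 higher and 2 lower, where 2.26% of all genes were higher and 4.26% lower. Against the seminal vesicle in place of the post-meiotic region, 2 were higher and 0 lower, and AgR059_g032, AgR037_g072 and AgR017_g222 changed direction. The share of all genes is not given for that setting, so its counts show nothing particular to the members. From one end of the male germline to the other, 1 member was called higher in spermatids than in the mitotic region and 12 lower, where 2.55% of all genes were higher and 12.5% lower. Rescaling gave 4 higher and 1 lower, where 3.94% of all genes were higher and 3.78% lower. The lower one was AgB10_g078, at 6.2 RPKM in spermatids, against 226.7 in the mitotic region.

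In the female, 3 members were called higher in diplotene than in late pachytene and 2 lower, where 2.37% of all genes were higher and 5.52% lower. The higher ones were AgR059_g032, AgR004_g150 and AgR016_g191, and the lower ones AgE18_g007 and AgR001_g113. After rescaling there were 4 higher and 1 lower, where 3.29% of all genes were higher and 1.80% lower. The lower one was AgE18_g007. In the oocyte, 3 were called higher than in the female mitotic region and 14 lower, where 2.96% of all genes were higher and 13.2% lower. Among the 14 were 3 CCT genes, such as CCT theta (7 against 48.2 RPKM, -2.62), and 0 of them were called after rescaling. Over all members 13 were then higher and 1 lower, where 6.29% of all genes were higher and 3.26% lower.

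Over the whole germline, 0 of 98 members had all male values at least 2-fold above all female ones on RPKM + 1 and 4 had the reverse, where 0.621% and 2.51% of all genes did. The counts were the same after rescaling. A looser rule, chosen after the values were seen, asked for a 2-fold difference between the means of log2(RPKM + 1) over the 5 regions of each sex. It gave 5 members higher in the male and 15 in the female, where 10.4% and 17.9% of all genes were, and 13 and 8 after rescaling, where 13.3% and 10.7% of all genes were. The 5 were AgB10_g078, AgE04_g020, AgE16_g001, AgR037_g072 and AgR120_g002, and all 5 were at 3.4 RPKM or less in the seminal vesicle. The region of highest level was male for 33 of the 78 members at 10 RPKM or more and female for 45, close to the 46.7% and 53.3% of all genes. After rescaling it was male for 52 and female for 26, where it was male for 63.9% of all genes.

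**Figure D5:**
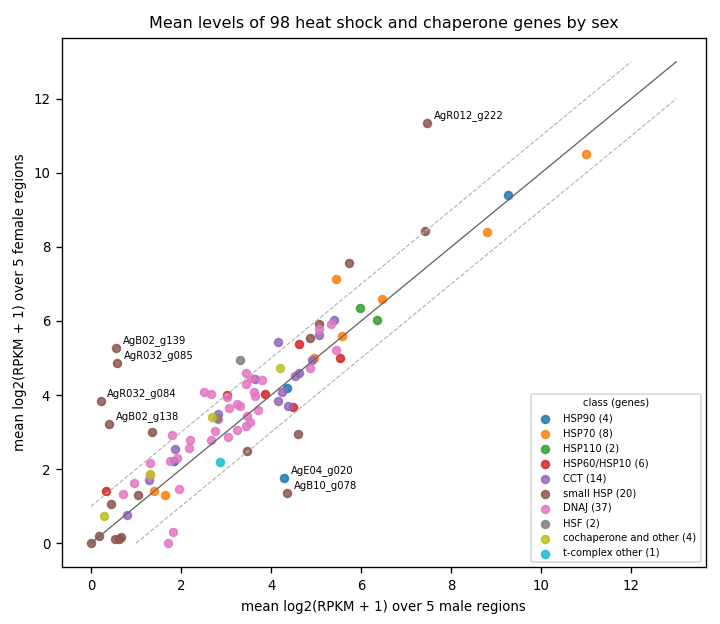
Mean of log2(RPKM + 1) over the 5 male regions (x) and the 5 female regions (y) for each of the 98 members, coloured by class, with the line of equal means and dashed lines at a 2-fold difference. AgE04_g020 and AgB10_g078 lie below the dashed lines, and 5 small heat shock genes, among them AgR012_g222 at the top, lie farthest above them.

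The list of 79 other folding genes (prefoldins, peptidyl-prolyl isomerases, disulfide isomerases, HSP90 cochaperones and the like) had 0 genes called higher in spermatogenesis than in the male mitotic region and 12 lower, or 5 and 0 after rescaling. Over all genes 2.16% were higher there and 11% lower, or 14.4% and 0.394% after rescaling. In the post-meiotic region 10 were higher than in spermatogenesis and 5 lower, and rescaling turned this to 4 higher and 8 lower. Over all genes 6.2% were higher in that step and 8.08% lower, or 3.53% and 16.5% after rescaling. The kinase-directed HSP90 partner Cdc37 had 3 genes, of which AgR015_g238 stayed at 5.8 RPKM or less. The eliminated AgB14_g001 was at 56.8, 82.5, 9.7, 0.7 and 4.9 RPKM in the male and 8.1, 5.8, 5.7, 1.6 and 1.3 in the female. The retained AgB08X_g201 was at 42.1, 8.3, 17.4, 13.6 and 25.8 RPKM in the male and 71.7, 57.1, 53.3, 41.2 and 70.6 in the female. The eliminated isomerase AgE08_g008 was at 47.9, 34.4, 4, 0.3 and 1.4 RPKM in the male and at 0.5 or less in the female. The alpha-crystallin B gene AgR012_g010, of the same fold as the small heat shock proteins, was at 3, 1.6, 24.4, 242.9 and 130.4 RPKM in the male and 1, 1.9, 1.3, 93.9 and 84.6 in the female, as AgR059_g032 high late in both. In the oocyte 4 of the list were higher than in the female mitotic region and 7 lower, and rescaling turned this to 14 higher and 2 lower. Over all genes 2.96% were higher in the oocyte and 13.2% lower, or 6.29% and 3.26% after rescaling. Calreticulin (AgB01_g339) was among the 4 of the list, at 406.7 against 66.1 RPKM.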

How the data were processed

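RNA was extracted with Trizol from frozen germline regions, depleted of ribosomal RNA with a human, mouse and rat kit and made into libraries with a TotalScript kit, per the labels' protocols. The authors deposited 1 table of RPKM values per transcript and region, with 1 decimal. Its header names no unit, and the values were taken as RPKM since they are not whole and do not sum to a fixed total. TopHat2 and Cufflinks are listed in the submitters' processing notes. The genome build, the annotation and the use of strand were not given in the sources used here. From a mixed sample, 2 libraries are not analysed here.

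A gene was represented by its transcript with the highest mean log2(RPKM + 1), for a member among its matching transcripts, since isoforms share reads. A call asked for a 4-fold difference on RPKM + 1 and a higher value of at least 10 RPKM. Between the sexes the lowest value of one had to be 2-fold above the highest of the other, also on RPKM + 1, and at least 1 RPKM. Medians use genes with a mean of 1 RPKM or more. Named were the members called (up to 10 each way per comparison), all CCT subunits, the 3 highest of each other class and the members with a gap, and others are named to account for every member. The 3 genes named for cochaperones were kept apart from HSP70 and HSP90. The members, classes and lists were chosen with earlier results of these data known.

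Depth was read from the steps between low values of transcripts under 250 nt, where 1 depth scored at least 1.5 times any other (this bound was set with the scores in view). It gave about 9.03 M reads in diplotene and 23.2 M in the oocyte, so that 10 RPKM at 1 kb is about 90.3 and 232.2 reads. It was not resolved in the other 8 libraries. Alternatives were median-ratio rescaling, a pseudocount of 0.1, no filter, other thresholds, other gene values and leaving out regions. Python 3.11.15, pandas 2.3.3, numpy 2.4.6 and matplotlib 3.10.9 were used, and the rules were tested on simulated data.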

Additional observations from a re-analysis of the deposited data

How the results depend on the processing

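Of 150 recomputed counts, 112 stayed within 1.5-fold of the reported ones, while rescaling ended 68 of the called differences of members, changed the sign of 1 and kept 36. After median-ratio rescaling there were 4 higher and 2 lower for the mitotic regions, 10 and 2 for spermatogenesis, 6 and 11 for the post-meiotic region, 4 and 1 for spermatids against the mitotic region, 13 and 1 for the oocyte, 1 lower in diplotene, and 52 members highest in a male and 26 in a female region. It took AgB05_g278 to 0.0057 on the log2 scale in spermatogenesis. A 2-fold threshold gave 10 higher and 9 lower for the mitotic regions, 5 and 53 for spermatogenesis, 9 lower for the post-meiotic region, 14 lower for spermatids against it, 2 and 32 for spermatids against the mitotic region, 5 and 20 for diplotene, and 10 and 28 for the oocyte. Without the filter there were 4 higher and 7 lower for the mitotic regions, 2 higher for spermatids against the mitotic region and 5 higher for the oocyte. Sums over transcripts gave 5 higher for the mitotic regions, 2 higher for spermatids against the mitotic region, and 5 and 4 for diplotene. A pseudocount of 0.1, and members represented among all transcripts of the gene, each gave 4 lower for diplotene. With the seminal vesicle as the region before spermatids 0 were lower, with AgR017_g222 at 0.86, AgR037_g072 at 1.86 and AgR059_g032 at -0.43 on the log2 scale. Apart from those after rescaling, the counts above are given without the share of all genes, so they show nothing particular to the members. The 2-fold rule on means, added after the values were seen, gave 5 higher in the male and 15 in the female. The gap counts between the sexes stayed at 0 and at 4 or 5 when any region was left out. No paired analysis was possible because each region is 1 library with no replicate. Depth is unknown in 8 libraries, so the counting error of low values there is unknown too.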
